A study of Homo sapiens with 19 samples.

Results

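The 6 genes described here encode receptors through which haematopoietic growth factors act: FLT3, KIT, CSF1R, CSF3R, CSF2RB and IL3RA. They were taken by name from the 20007 protein-coding genes of GENCODE release 44, and the peaks within 10 kb of the transcription start site (TSS) and over the gene body of each were collected from 12 deposited peak lists. FLT3, KIT and CSF1R are receptor tyrosine kinases of 1 family: a dimeric ligand brings 2 receptor molecules together, the kinases phosphorylate each other, and Ras, phosphoinositide 3-kinase and STAT signalling follow. CSF3R, the receptor of G-CSF, and CSF2RB with its partner IL3RA, which together bind interleukin-3, have no kinase of their own and signal through bound Janus kinases. KIT and FLT3 are known from stem and progenitor cells, CSF3R from granulocytes and CSF1R from monocytes and macrophages.

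The marks were mapped by CUT&RUN, which cuts out chromatin around a bound antibody with a tethered nuclease, in Molm-13, a line established from human acute myeloid leukaemia and known to carry an internal duplication in FLT3. The series has 19 samples, of which 12 are used: for each of H3K27ac, H3K4me2 and H3K4me3, 2 samples of cells treated with Corin and 2 with DMSO, the vehicle. Corin blocks 2 enzyme activities of the CoREST complex, demethylation of H3K4 by LSD1 and histone deacetylation. All groups are the same line without any other labelled alteration, treated for 24 h, at 0.1 µM for Corin (the labels print the same dose for DMSO). The remaining 7 samples (4 with ATRA and Corin, 1 against LSD1, 2 with IgG as background antibody) were not used here, and whether the peaks were called against IgG is not given in the sources used here. The labels number the samples of a group but do not say whether they were separate cultures, so p-values measure the spread between these samples only.

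The lists hold positions and scores of peaks and no reads, so the measurement used throughout is the number of base pairs under peaks. Read depth is unknown beyond the labelled minimum of 5000000 paired 150 bp reads per sample. The H3K27ac lists held 34424 and 30029 peaks with Corin and 17599 and 19995 with DMSO, and the H3K4me2 lists 41152 and 40042 with Corin and 30896 and 32299 with DMSO. The H3K4me3 lists were closer in number, from 11104 to 11883. Because the Corin lists of H3K27ac and H3K4me2 were longer genome-wide, the results for the receptors stand beside the share of all genes that did the same, and for the main results values from lists cut to an equal number of top-scoring peaks are given as well. Of 11 markers of myeloid cells and of this line, 7 (PTPRC, CD33, SPI1, CEBPA, LYZ, HOXA9 and MEIS1) had an H3K4me3 peak within 1 kb of the TSS in all 4 lists of that mark. MPO, ITGAM and FCGR1A had one in 0 of 4 lists and CD14 in 1. None of 13 markers of T cells, B cells, erythroid and non-haematopoietic cells had one in any list, although PAX5 and COL1A1 had an H3K4me2 peak there in 4 lists and EPCAM in 3.

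The receptors differed widely in their number of peaks. FLT3 had 93 peaks over the 12 lists, CSF1R 40, CSF3R 30 and KIT and CSF2RB 9 each. IL3RA lies where none of the lists has a peak and is left out of this order. These counts are over genes of unequal length, from 17236 bp for CSF3R to 97319 bp for FLT3. Within 10 kb of the TSS, in windows of equal length, the order of H3K4me2 in DMSO was FLT3, CSF3R, CSF1R, then KIT and CSF2RB, whose values overlapped. With Corin CSF1R stood above CSF3R, and KIT and CSF2RB overlapped again. H3K4me3, the mark of active promoters, was found in all 4 lists only at FLT3 and CSF3R among the 5 genes that could be measured. These levels are shown in the plot of length under peaks by list.

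**Figure D1:**
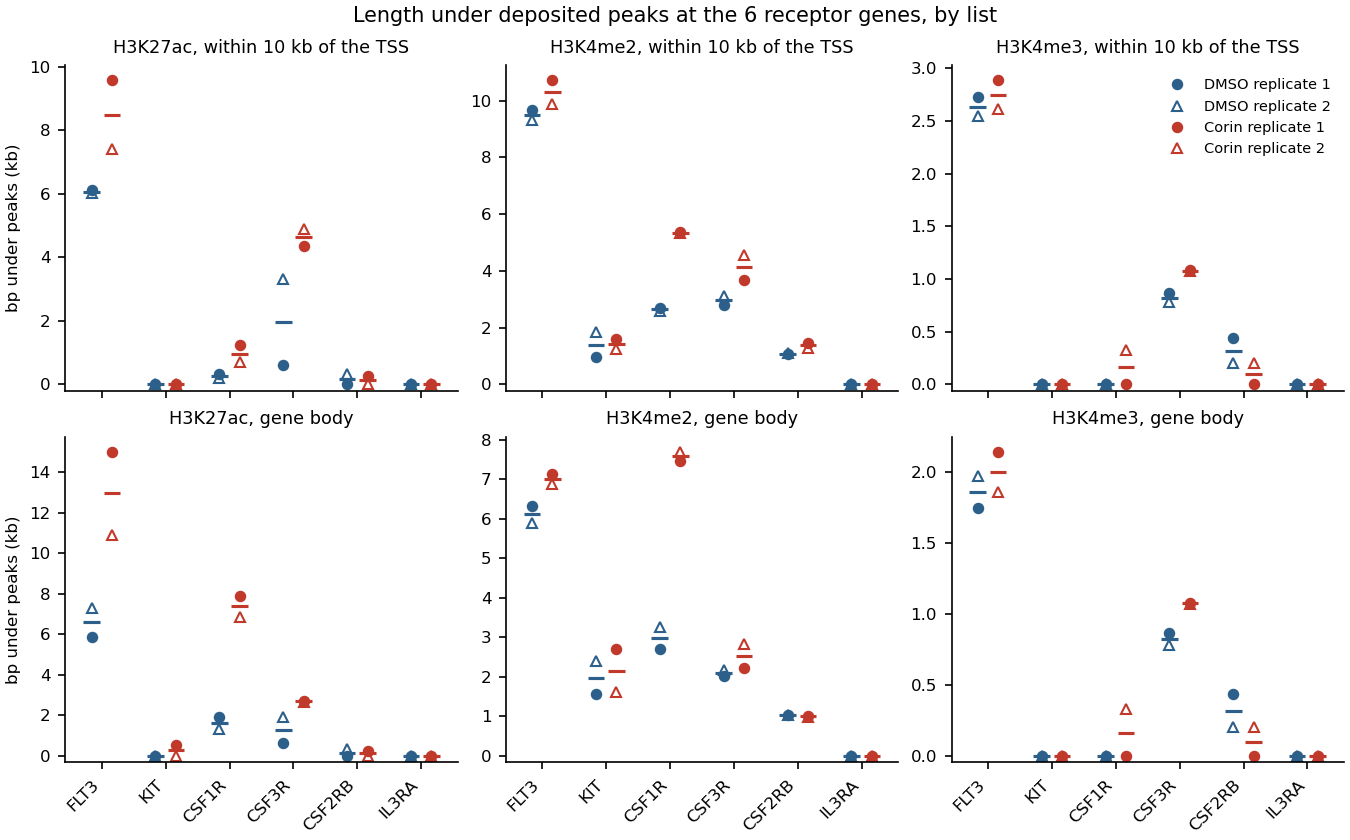
Length under deposited peaks (kb) at the 6 receptor genes for H3K27ac, H3K4me2 and H3K4me3, within 10 kb of the TSS (top) and over the gene body (bottom). Each point is 1 list (circle, replicate 1; triangle, replicate 2; blue, DMSO; red, Corin) and each dash is the mean of 2 lists; the 2 H3K4me2 lists of Corin at CSF1R (5369 and 5318 bp) sit above the 2 of DMSO (2703 and 2587 bp).

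A test was made for every protein-coding gene with a mean of at least 200 bp over the 4 lists of a mark, with limma and Benjamini-Hochberg adjustment over all genes tested. Within 10 kb of the TSS it called 0 of 9199 genes for H3K27ac (0%), 20 of 13752 for H3K4me2 (0.145%, all higher with Corin) and 0 of 10925 for H3K4me3 (0%) at an adjusted p under 0.05. At an unadjusted p under 0.05 there were 2433, 1946 and 753 genes. No receptor was among those called in any mark by these fits, which hold the 4 lists of 1 mark and no replicate block. In 1 fit over all 12 lists FLT3, CSF1R and CSF3R passed for H3K27ac (limma, adjusted p = 0.0325, 0.0466 and 0.0259) and CSF1R for H3K4me2 (9.15e-05). That fit, which shares 1 estimate of spread between the marks, called 1996 of 9199 genes for H3K27ac and 1449 of 13752 for H3K4me2. The receptors with enough coverage to be tested were FLT3, CSF1R and CSF3R for H3K27ac, these with KIT and CSF2RB for H3K4me2, and FLT3, CSF3R and CSF2RB for H3K4me3. A simpler description is whether both Corin lists lay above both DMSO lists. For H3K27ac this held for 3 of the 3 receptors tested, against 60.6% of all genes tested, and the reverse order held for 0 of 3, against 0.641%. In lists of equal peak number it held for 2 of 3, since CSF1R overlapped, and for 3337 of 8167 genes, with 275 in reverse order. For H3K4me2 it held for 4 of 5 (40.6% of all genes) and the reverse for 0 of 5 (4%). In lists of equal peak number the same 4 receptors were above, as were 4350 of 13491 genes, with 1039 in reverse order. For H3K4me3 it held for 1 of 3 (26.6%) and the reverse for 0 of 3 (8.65%). The median difference of the receptors tested was 2416 bp for H3K27ac beside 528 bp over all genes, 808 bp beside 242 bp for H3K4me2, and 113.5 bp beside 63 bp for H3K4me3. These counts and medians rest on 3 to 5 genes that passed the coverage minimum and are given as a description.

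**Figure D2:**
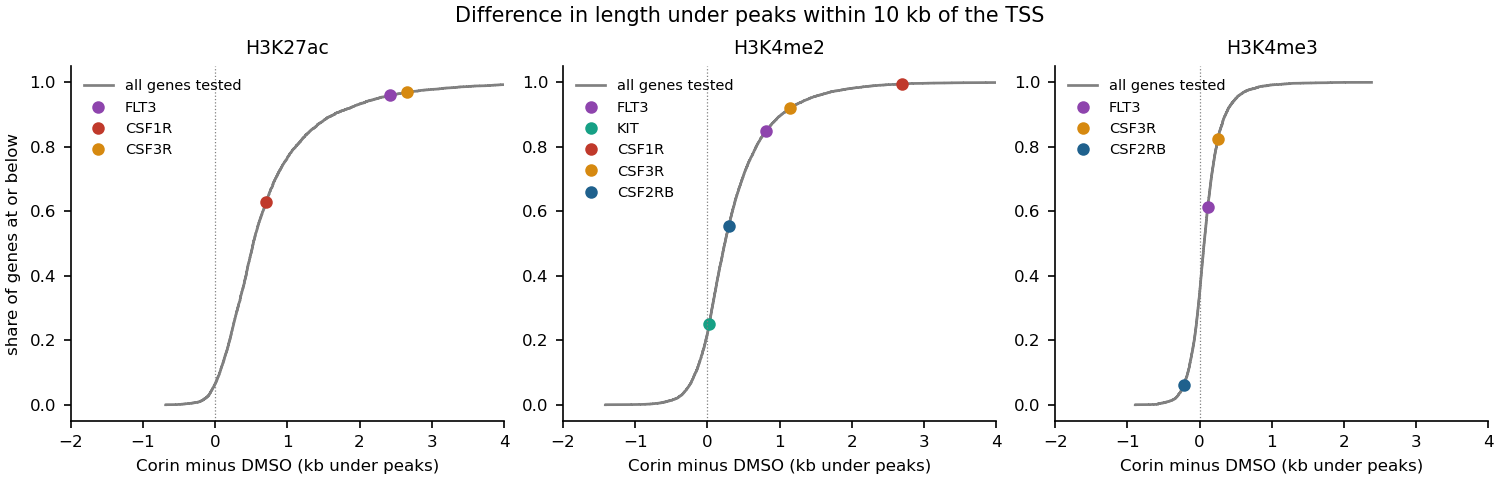
Cumulative share of all genes tested (grey line) against the difference in length under peaks within 10 kb of the TSS, Corin minus DMSO (kb), for each mark, with the receptors tested as coloured points. CSF1R lies near the upper end for H3K4me2, FLT3 and CSF3R lie high for H3K27ac, and KIT lies at a difference of 27 bp for H3K4me2.

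FLT3, the receptor of FLT3 ligand, had the most peaks of the 5 genes that could be measured and, within 10 kb of the TSS, the most length under each mark. The gene lies on chromosome 13, minus strand (chr13:28003274-28100592, ENSG00000122025.15), with its canonical TSS at 28100576. H3K27ac within 10 kb of the TSS covered 9568 and 7398 bp with Corin and 6118 and 6015 bp with DMSO. The Corin lists were both higher, by a mean of 2416.5 bp or 1.40-fold, with an SD of 1534 bp between the Corin lists, and the test was not passed (limma, Benjamini-Hochberg adjusted p = 0.226). Without Corin replicate 1 the difference was 1332 bp, and in lists of equal peak number 2245 bp. H3K4me2 covered 10711 and 9898 bp with Corin and 9679 and 9314 bp with DMSO, 1.09-fold apart (limma, adjusted p = 0.615), and the difference of 808 bp was 699 bp in lists of equal peak number. Without Corin replicate 1 it was 401.5 bp and without Corin replicate 2 1214 bp. H3K4me3 covered 2886 and 2616 bp with Corin and 2730 and 2545 bp with DMSO. The groups of H3K4me3 overlapped, and the difference of 113.5 bp was smaller than the SD of 190.9 bp between the Corin lists (limma, adjusted p = 0.958).

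Merging the peaks of all 12 lists gave 25 separate segments at FLT3, 22 of them with H3K27ac only and 15 in a single list. The promoter segment, chr13:28093489-28103185, reached from 2609 bp upstream to 7087 bp into intron 1 and held peaks of all 12 lists. In it H3K4me2 covered 8707, 8756, 8389 and 8196 bp (Corin 1 and 2, DMSO 1 and 2) and H3K27ac 8536, 6803, 5705 and 5459 bp. Over the TSS itself an H3K4me2 peak was called in replicate 2 of each treatment and in neither replicate 1, while H3K4me3 covered the TSS in all 4 lists. The reference sequence before the annotated first exon, within the 250 bases of the RefSeq promoter (GRCh38.p14, chr13:28100593-28100826, minus strand), is 71.8% G and C. It is shown because it lies under these peaks.
FLT3 promoter: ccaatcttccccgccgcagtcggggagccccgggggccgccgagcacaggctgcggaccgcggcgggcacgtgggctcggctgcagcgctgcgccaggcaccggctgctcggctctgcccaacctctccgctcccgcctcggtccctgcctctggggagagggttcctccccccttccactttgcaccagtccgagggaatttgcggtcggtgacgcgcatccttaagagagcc
In this and the other sequences both strands were searched for letters bound by blood transcription factors, and any match is in capitals. The letters were GAGGAAGT for PU.1, CCGGAAGT for ETS factors, TTGCNNAA for C/EBP, TTCNNNGAA for STAT and AATCNNNGC for GFI1. Shorter ones were TGTGGT for RUNX, AGATAA for the factors of the GATA family, TGANTCA for the AP-1 dimers and AACGG for the MYB protein. The FLT3 promoter holds none of them.

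Over the FLT3 gene body H3K27ac covered 14997 and 10930 bp with Corin and 5884 and 7304 bp with DMSO. Both Corin lists were above both DMSO lists, 1.97-fold on average, and the difference of 6369.5 ± 3046 bp (SD of the difference, n = 2 per group) did not pass the test (limma, adjusted p = 0.138). In lists cut to an equal number of peaks the difference was 2982 bp. Much of the body coverage lay in scattered introns: of 29 H3K27ac regions at FLT3, 3 were gained, that is, present in both Corin lists and in neither DMSO list, as were 11.5% of such regions genome-wide. These were 309 bp in intron 3 (chr13:28059203-28059511), 760 bp in intron 4 (chr13:28056946-28057705) and 776 bp in intron 12 (chr13:28034665-28035440). In lists of equal peak number those in introns 3 and 12 were in 1 Corin list and that in intron 4 in 0, so none was gained. The widest segment away from the promoter was in intron 15, chr13:28031153-28033727, between 66849 and 69423 bp past the TSS. H3K27ac covered 2499 and 2306 bp of it with Corin and 1056 and 1691 bp with DMSO. H3K4me2 covered 689 and 623 bp with Corin and was absent from both DMSO lists. That H3K4me2 peak (chr13:28031366-28032073, 708 bp) was 1 of the 2 H3K4me2 regions gained at the 6 genes. The nearest coding TSS to it is that of URAD, 42673 bp away, as for the intron 12 region, 45972 bp away. The gene to which these 2 regions belong cannot be assigned. The 300 bases of the intron 15 segment centred on the place covered by most lists, 6 of the 12, are shown (hg38, chr13:28031809-28032108, minus strand). They contain none of the motifs searched.
FLT3 intron 15: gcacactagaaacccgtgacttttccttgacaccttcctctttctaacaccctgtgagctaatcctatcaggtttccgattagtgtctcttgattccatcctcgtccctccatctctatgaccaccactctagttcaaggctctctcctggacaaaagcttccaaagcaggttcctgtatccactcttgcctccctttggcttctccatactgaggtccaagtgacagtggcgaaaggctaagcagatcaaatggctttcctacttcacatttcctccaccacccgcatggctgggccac

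**Figure D3:**
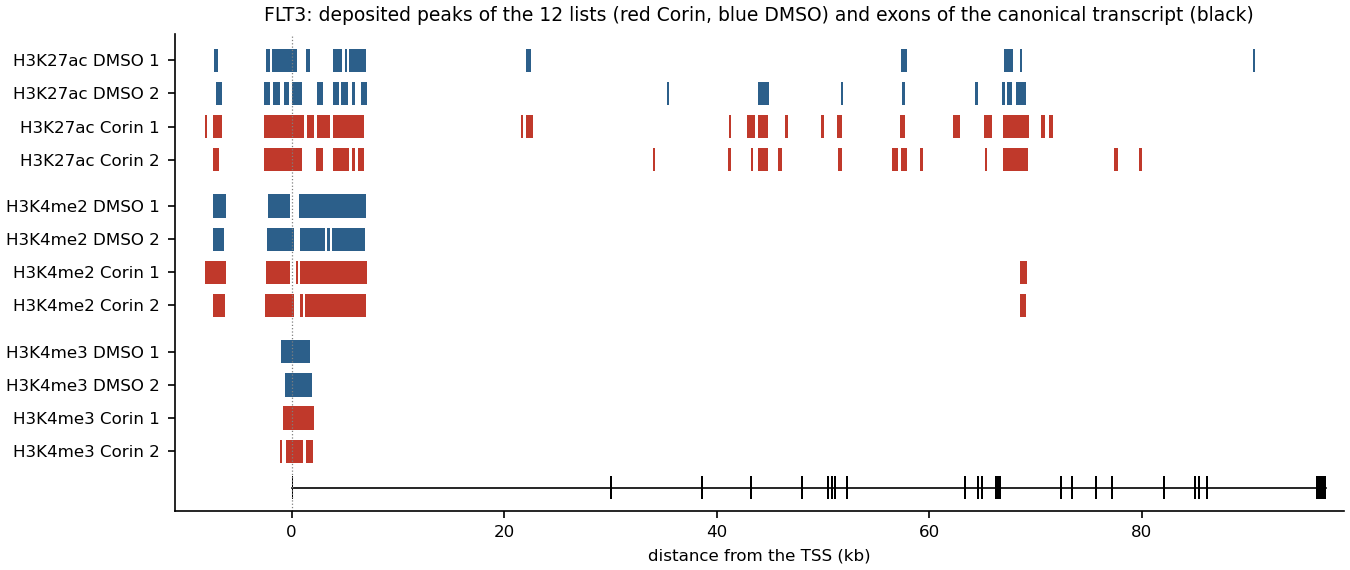
Peaks of the 12 lists at FLT3 by distance from the TSS (kb); each row is 1 list (red, Corin; blue, DMSO) and black boxes are exons of the canonical transcript. All 3 marks share the domain around the TSS, H3K27ac peaks are scattered through the gene in every list of that mark, and the H3K4me2 peak in intron 15 is in the 2 Corin lists only.

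KIT, the receptor of stem cell factor, carried H3K4me2 alone at its promoter. The gene lies on chromosome 4, plus strand (chr4:54657267-54740783, ENSG00000157404.17), with the canonical TSS at 54657957. H3K4me2 within 10 kb of it covered 1606 and 1251 bp with Corin and 977 and 1826 bp with DMSO. The groups overlapped, and the difference of 27 bp was far within the SD of 600.3 bp between the DMSO lists (limma, adjusted p = 0.987). H3K27ac and H3K4me3 had no peak within 10 kb of the TSS in any of their 4 lists. The promoter segment, chr4:54657860-54659685, began 97 bp before the TSS, but only the peak of DMSO replicate 2 (1826 bp) covered the TSS itself. The reference promoter before the annotated exon (RefSeq, GRCh38.p14, chr4:54657707-54657888, plus strand) is shown beside that of CSF1R because both genes had H3K4me2 with little or no H3K4me3 while their promoters differ in base composition. The KIT promoter is 75.8% G and C and that of CSF1R 54.3%.
KIT promoter: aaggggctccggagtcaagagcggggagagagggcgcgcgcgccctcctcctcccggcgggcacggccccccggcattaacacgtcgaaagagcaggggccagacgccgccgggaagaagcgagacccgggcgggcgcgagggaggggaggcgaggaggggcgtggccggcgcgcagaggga
CSF1R promoter: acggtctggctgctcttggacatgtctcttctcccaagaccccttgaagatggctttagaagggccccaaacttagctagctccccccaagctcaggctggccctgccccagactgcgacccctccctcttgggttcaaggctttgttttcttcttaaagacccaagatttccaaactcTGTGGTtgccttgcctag
The KIT promoter holds none of the letters searched. The CSF1R promoter (RefSeq, GRCh38.p14, chr5:150086608-150086804, minus strand) holds 1 RUNX match, as do 11% of 34961 promoters.

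A second H3K4me2 site lay in intron 1 of KIT, chr4:54687814-54688990, about 30 kb past the TSS. It covered 1102 and 363 bp with Corin and 589 and 579 bp with DMSO. The Corin lists enclosed the DMSO lists, so no direction can be read. Corin replicate 1 also had an H3K27ac peak of 553 bp there, the only H3K27ac peak at KIT in any list. The 300 bases centred on the place covered by all 4 H3K4me2 lists (hg38, chr4:54688080-54688379, plus strand) hold the RUNX letters at 2 places. RUNX letters occur in 20.4% of 42429 stretches of the same length at the centres of H3K4me2 regions.
KIT intron 1: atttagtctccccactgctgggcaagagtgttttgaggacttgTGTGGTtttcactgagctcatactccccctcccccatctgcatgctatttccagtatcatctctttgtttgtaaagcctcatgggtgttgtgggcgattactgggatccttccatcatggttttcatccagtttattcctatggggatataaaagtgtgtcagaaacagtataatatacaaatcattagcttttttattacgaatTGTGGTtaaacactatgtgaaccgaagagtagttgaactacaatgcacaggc
Neither PDGFRA nor KDR, receptor kinase genes that flank KIT on chromosome 4, had H3K27ac or H3K4me3 peaks within 10 kb of the TSS. PDGFRA had H3K4me2 over 1564 and 1566 bp with Corin and 1210 and 1445 bp with DMSO, and KDR had none in any list.

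CSF1R, the receptor of M-CSF and interleukin-34, had wider H3K4me2 and H3K27ac in both Corin lists than in both DMSO lists, near the TSS and over the gene body. It lies on chromosome 5, minus strand (chr5:150053291-150113372, ENSG00000182578.14). The canonical TSS, at 150086554, is not the 5′ end of the annotated gene but the start used in GENCODE's canonical transcript. H3K4me2 within 10 kb of it covered 5369 and 5318 bp with Corin and 2703 and 2587 bp with DMSO. The means were 5343.5 ± 36.1 bp and 2645 ± 82 bp (SD, n = 2 each), 2.02-fold apart, and the groups lay far from each other relative to this spread. The difference of 2698.5 bp ranked 68 of 13752 genes. It fell just short of the threshold (limma, unadjusted p = 0.000118, Benjamini-Hochberg adjusted p = 0.0548). The call depended on the fit: the adjusted p was 9.15e-05 in 1 fit over all 12 lists and up to 0.672 when 1 of the 4 lists was left out, while the difference itself stayed between 2640 and 2756 bp without each list. It was the same, 2698.5 bp, in lists of equal peak number.

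Within 10 kb of the CSF1R TSS most of the added H3K4me2 lay between and beside the blocks seen in DMSO. In both DMSO lists it formed 2 blocks, 1 over the TSS (1581 and 1461 bp wide) and 1 further into intron 1 (1122 and 1126 bp). With Corin 1 peak of 5369 bp ran from 307 bp before the TSS to 5061 bp after it in replicate 1. There replicate 2 kept 2 peaks, of 2412 bp over the TSS and 2685 bp in intron 1, with a gap between 2036 and 2372 bp past the TSS. A further peak of 221 bp, in Corin replicate 2 alone, lay 2443 to 2663 bp before the TSS. Intron 1 of this transcript is known to hold an enhancer called FIRE, the fms-intronic regulatory element. H3K4me3 was called at the TSS in Corin replicate 2 alone, over 328 bp.

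H3K27ac over the CSF1R window was sparse, at 1235 and 690 bp with Corin and 321 and 195 bp with DMSO. Both Corin lists were higher, 3.73-fold on average (limma, adjusted p = 0.187). At the TSS itself, chr5:150086179-150086868, H3K27ac was gained: it covered 466 and 690 bp with Corin and was listed in neither DMSO list. The peak of Corin replicate 1 had a score above 47.2% of the peaks of its own list, by the authors' scores. In lists of equal peak number it dropped out, leaving 0 and 690 bp with Corin against 321 and 195 bp, which overlap. Without Corin replicate 1 the difference was 432 bp.

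More of the H3K27ac lay inside the gene. Over the CSF1R body it covered 7916 and 6880 bp with Corin and 1904 and 1342 bp with DMSO, 4.56-fold apart, with a difference of 5775 ± 833.4 bp (SD of the difference). That was the 16th smallest p of 8961 genes, yet it did not pass (limma, unadjusted p = 0.000481, adjusted p = 0.0987). In 1 fit over all 12 lists it passed (limma, adjusted p = 0.000331), as did 2310 of the 8961 genes. The difference was 4664 bp in lists of equal peak number. H3K4me2 over the body covered 7481 and 7693 bp with Corin and 2703 and 3276 bp with DMSO, 2.54-fold apart (limma, adjusted p = 0.117). Over the gene body limma called 0 of 8961 genes for H3K27ac (0%), 0 of 13657 for H3K4me2 (0%) and 0 of 10561 for H3K4me3 (0%), with 2321, 2236 and 741 at an unadjusted p under 0.05. Both Corin lists were above both DMSO lists over the body for 3 of 3 receptors tested in H3K27ac (60.4% of all genes), 3 of 5 in H3K4me2 (41%) and 1 of 3 in H3K4me3 (24.3%). Both were below for 0 of 3 (1.02%), 1 of 5 (4.91%) and 0 of 3 (9.39%). In H3K27ac lists of equal peak number the body of CSF3R overlapped, at 1660 and 2501 bp with Corin and 617 and 1912 bp with DMSO, and 3164 of 7826 genes were above.

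The wider H3K27ac segments away from the CSF1R promoter were 3, in the 3′ part of the transcript and past its end. In intron 10, chr5:150065051-150068152, 18402 to 21503 bp past the TSS, H3K27ac covered 2435 and 3102 bp with Corin and 422 and 563 bp with DMSO. H3K4me2 there covered 1842 and 1951 bp with Corin and 0 and 689 bp with DMSO. In both marks the Corin lists stood apart from the DMSO lists. In intron 14, chr5:150057357-150059638, H3K27ac covered 2223 and 1777 bp with Corin and 437 and 0 bp with DMSO. An H3K4me2 region of 270 bp within it (chr5:150058632-150058901) was gained, with 270 and 199 bp, also in lists of equal peak number. At the 3′ end, chr5:150049179-150054142, which runs past the gene, H3K27ac covered 3972 and 4447 bp with Corin and 2050 and 2416 bp with DMSO. The gene ends at 150053291, so most of this segment lies outside CSF1R. The peaks reached into the gene as far as 150054142 and 150053893 with Corin and 150054014 and 150053874 with DMSO. Inside the gene these overlap, and the wider coverage with Corin lay past its end. A further 408 bp of intron 10 (chr5:150064420-150064827) gained H3K27ac. The 300 bases of intron 10 centred on the place covered by 6 lists (hg38, chr5:150065910-150066209, minus strand) hold 1 match to the PU.1 letters, found in 4.19% of 42429 regions of that length, and 1 to the GFI1 letters, found in 15.6%.
CSF1R intron 10: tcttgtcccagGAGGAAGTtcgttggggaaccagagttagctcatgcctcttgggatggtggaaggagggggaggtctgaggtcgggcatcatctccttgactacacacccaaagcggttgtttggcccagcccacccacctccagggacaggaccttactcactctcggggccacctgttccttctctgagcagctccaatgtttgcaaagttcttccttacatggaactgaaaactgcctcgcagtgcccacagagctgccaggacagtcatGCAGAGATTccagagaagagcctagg
PDGFRB, a receptor kinase gene whose 3′ end lies next to the 5′ end of CSF1R, had H3K4me2 over 330 and 323 bp with Corin and 318 and 290 bp with DMSO, and no peak of the other marks.

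**Figure D4:**
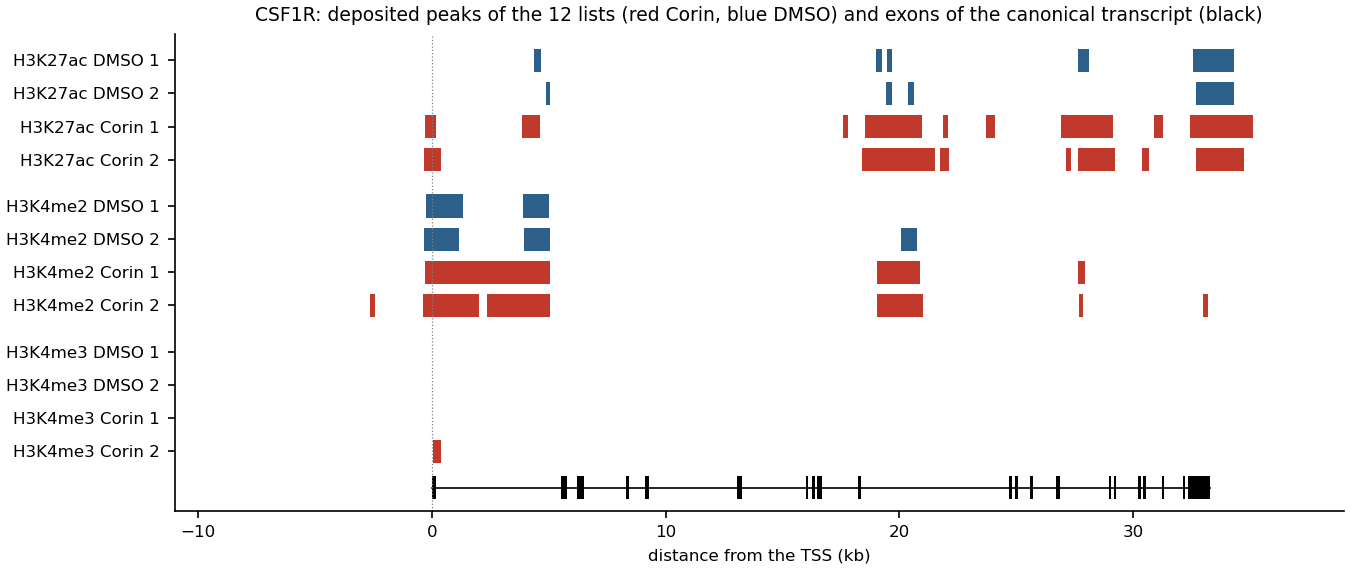
Peaks of the 12 lists at CSF1R by distance from the canonical TSS (kb); each row is 1 list (red, Corin; blue, DMSO) and black boxes are exons of the canonical transcript. The H3K4me2 blocks over the TSS and in intron 1 are 2 separate peaks in DMSO and wider with Corin, and H3K27ac in introns 10 and 14 is wider in the 2 Corin lists.

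CSF3R, the receptor of G-CSF, had all 3 marks at its promoter and an upstream element. It lies on chromosome 1, minus strand (chr1:36466043-36483278, ENSG00000119535.20), with the canonical TSS at 36482913. H3K27ac within 10 kb covered 4367 and 4885 bp with Corin and 617 and 3323 bp with DMSO. Both Corin lists were higher, 2.35-fold on average, but the DMSO lists themselves differed widely, with an SD of 1913 bp around a mean of 1970 bp (limma, unadjusted p = 0.0152, adjusted p = 0.12). Without DMSO replicate 1 the difference of 2656 bp became 1303 bp, and without DMSO replicate 2 it became 4009 bp. It was 2323 bp in lists of equal peak number. H3K4me2 covered 3669 and 4565 bp with Corin and 2807 and 3129 bp with DMSO, 1.39-fold apart (limma, adjusted p = 0.281), and the difference of 1149 bp was 837 bp in lists of equal peak number and 701 bp without Corin replicate 2. H3K4me3 covered 1081 and 1074 bp with Corin and 867 and 779 bp with DMSO. This was the 1 receptor whose H3K4me3 lists did not overlap between treatments, by 254.5 ± 62.4 bp (SD of the difference), and the test was not passed (limma, unadjusted p = 0.0644, adjusted p = 0.78).

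The promoter segment of CSF3R, chr1:36480822-36483508, held peaks of all 12 lists. H3K27ac covered 1890 and 1791 bp of it with Corin and 617 and 1727 bp with DMSO, so the low value was that of DMSO replicate 1 alone. The upstream element, chr1:36485349-36488193, lay 2436 to 5280 bp before the TSS. H3K4me2 covered 1438 and 1578 bp of it with Corin and 785 and 943 bp with DMSO, and H3K27ac covered 1811 and 2190 bp with Corin and 0 and 1195 bp with DMSO. Both marks were thus wider there in both Corin lists, without H3K4me3 in any list. The 300 bases centred on the place covered by 7 lists (hg38, chr1:36486887-36487186, minus strand) hold the C/EBP letters 3 times, each as the same 8 bases.
CSF3R upstream: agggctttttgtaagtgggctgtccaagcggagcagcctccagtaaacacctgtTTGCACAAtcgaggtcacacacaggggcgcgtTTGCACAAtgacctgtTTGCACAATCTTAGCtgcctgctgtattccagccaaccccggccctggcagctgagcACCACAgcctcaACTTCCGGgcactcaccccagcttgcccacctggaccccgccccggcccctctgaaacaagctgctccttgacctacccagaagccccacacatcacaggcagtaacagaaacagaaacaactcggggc
The third C/EBP match runs into 1 to the GFI1 letters, and 1 RUNX and 1 ETS match follow on the other strand. C/EBP factors are known to drive granulocyte genes. At least 1 C/EBP match occurs in 15.5% of regions of that length and at least 3 in 0.186% (79 of 42429), a count made after the sequence was seen. The shares for ETS, RUNX and GFI1 are 0.837%, 20.4% and 15.6%. H3K27ac was also gained over 682 bp at the last exon, exon 17 (chr1:36465899-36466580), with 410 and 304 bp, and was in none of the lists of equal peak number. That site is 1515 bp from the TSS of MRPS15, which encodes a mitochondrial ribosomal protein, so its gene cannot be assigned.

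CSF2RB, the signalling chain shared by the receptors of interleukin-3, interleukin-5 and GM-CSF, had 1 segment of peaks, chr22:36913174-36914673, around its TSS (chr22:36913628-36940439, plus strand, ENSG00000100368.15). H3K4me2 within 10 kb covered 1472 and 1288 bp with Corin and 1059 and 1102 bp with DMSO, 1.28-fold apart and without overlap (limma, adjusted p = 0.609). The added length lay upstream: the Corin peaks began 454 and 305 bp before the TSS and those of DMSO 13 and 69 bp before it. Counted over the gene body alone, the values were 1018 and 983 bp with Corin and 1046 and 1033 bp with DMSO, in the reverse order (limma, adjusted p = 0.936). H3K4me3 covered 0 and 203 bp with Corin and 437 and 202 bp with DMSO. These overlap (limma, adjusted p = 0.892). H3K27ac was called in Corin replicate 1 (265 bp) and DMSO replicate 2 (333 bp) only, too little to be tested.

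**Figure D5:**
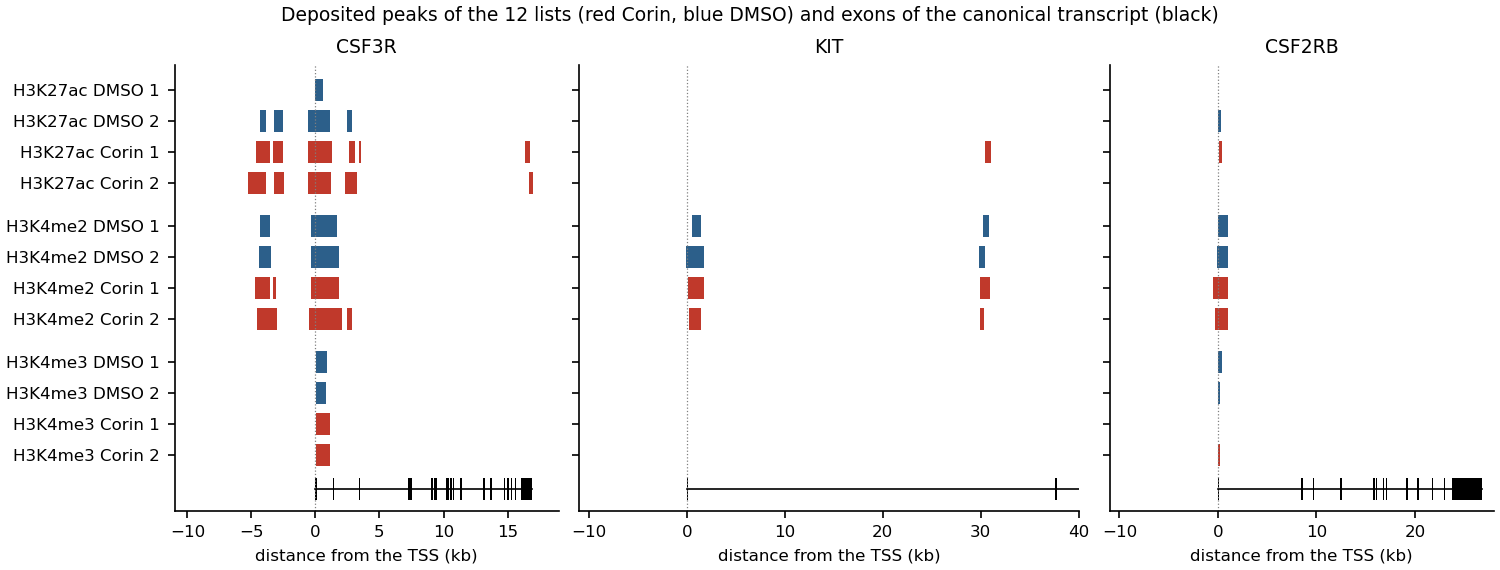
Peaks of the 12 lists at CSF3R, KIT (shown to 40 kb past the TSS, beyond which it had no peak) and CSF2RB by distance from the TSS (kb); each row is 1 list (red, Corin; blue, DMSO) and black boxes are exons. CSF3R has all 3 marks at the TSS and 2 marks upstream, KIT has H3K4me2 at the TSS and in intron 1, and CSF2RB has 1 segment at the TSS.

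IL3RA, the chain that binds interleukin-3, could not be measured. It lies in the first pseudoautosomal region, which is the same on chromosomes X and Y (chrX:1336616-1382689, plus strand, ENSG00000185291.12). None of the 12 lists had a peak anywhere in that region on either chromosome. The region holds 16 protein-coding genes, among them the widely expressed SLC25A6 and CD99, and outside it the lists held 7533 peaks on chromosome X, the first of which started at 2848804. The 0 at IL3RA therefore belongs to the whole region and is no level of the gene. The same holds for CSF2RA, the GM-CSF-binding partner of CSF2RB.

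Of the 48 H3K27ac regions at these genes, 6 were gained and 0 lost, that is, in both DMSO lists and neither Corin list. Genome-wide 11.5% of 41587 such regions were gained and 0.18% lost. For H3K4me2, 2 of 16 were gained and 0 lost, against 9.64% and 0.158% of 42429. In H3K4me2 lists of equal peak number 2 of 13 were gained and 0 lost, against 3.91% and 1.7% of all regions. For H3K4me3, 0 of 4 were gained and 0 lost, against 1.49% and 0.289% of 12090. The H3K27ac count at the receptors moved with the setting: it was 2 of 28 in lists of equal peak number (4.49% of all regions) and 10 of 48 when a list had to cover 50% of a region (15.1% of all regions). Peaks of all 4 lists of a mark were found at 8 of the 48 H3K27ac regions, 9 of the 16 H3K4me2 regions and 2 of the 4 H3K4me3 regions. Genome-wide this held for 9498 of 41587, 23578 of 42429 and 9772 of 12090 regions.

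The pattern over the 12 lists, taken as Pearson's r of the length within 10 kb after subtracting the mean of each mark, was compared with 13185 or 13186 other genes. The points share their libraries, and r describes these lists only. Nearest to FLT3 were RLBP1 (r = 0.995), HDAC7 (0.993) and VPS37A (0.987). Nearest to CSF1R were MYBPH and CHI3L1 (both 0.990), neighbours whose windows overlap each other, and C2CD4D (0.988). Those of CSF3R were TFAP4 (0.983), ZNF7 (0.970) and ATXN7L3 (0.969), and those of CSF2RB were ACYP1 and ZC2HC1C (both 0.923), again neighbours, and TARS1 (0.863). KIT's r rests on the 4 H3K4me2 values, since the other 8 are 0, and was highest with CLSTN2, followed by CAMK2N2 and ELAPOR2 (both 0.998). Among the receptors r was 0.576 for FLT3 with CSF3R, 0.543 for CSF1R with CSF2RB and 0.520 for FLT3 with CSF1R, and at most 0.167 for KIT with any other.

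The genes around these receptors were described as 5 lists, and the separate limma fits of each mark called none of their members. Of 30 signal transducers, such as kinases and adaptors, 23 were tested for H3K27ac, and 16 had both Corin lists above both DMSO lists and 0 below, beside the 60.6% and 0.641% of all genes. Of 17 negative regulators, 13 were tested and 12 were above and 0 below. The 12 other cytokine receptors gave 3 of 4 tested above, the 9 ligands 1 of 1, and none of the 5 related receptor kinases had enough H3K27ac. The counts of these lists were not repeated in peak lists of equal number, where 3337 of 8167 genes were above for H3K27ac. For H3K4me2 the counts above and below were 13 and 3 of 30 transducers, 9 and 1 of 16 negative regulators, 3 and 0 of 7 other receptors, 2 and 0 of 3 related kinases and 0 and 1 of 3 ligands, beside 40.6% and 4%. For H3K4me3 they were 4 and 2 of 28, 3 and 3 of 15, 2 and 0 of 5, and 1 and 0 of 1 ligand, with no related kinase tested, beside 26.6% and 8.65%.

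A few of these genes, picked after their values were seen, show the range. PTPN6, a phosphatase that dampens cytokine receptor signals, had H3K27ac over 11327 and 10622 bp with Corin and 5280 and 5534 bp with DMSO (limma, adjusted p = 0.0623). SH2B3, the inhibitory adaptor LNK, had 4255 and 3709 bp against 1049 and 1430 bp (limma, adjusted p = 0.0567). In both genes the lists of the treatments were well apart. IL2RG, the common gamma chain of lymphoid cytokine receptors, had 7609 and 6645 bp against 2475 and 2956 bp (limma, adjusted p = 0.0565). In the other direction, and for H3K4me2 only, was CBL, a ubiquitin ligase that removes activated receptors. Its H3K4me2 covered 2234 and 2014 bp with Corin and 2563 and 2593 bp with DMSO (limma, adjusted p = 0.496). The means of its H3K27ac and H3K4me3 were higher with Corin, by 930 and 142 bp. FLT1, a receptor kinase gene near FLT3 on chromosome 13, had H3K4me2 over 1745 and 1526 bp with Corin and 1332 and 1849 bp with DMSO, which overlap. In a bulk sample, a mark in fewer cells and a weaker mark in every cell cannot be told apart.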

How the data were processed

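The 12 peak lists (H3K27ac, H3K4me2 and H3K4me3; Corin and DMSO; 2 samples each) give chromosome, start, end and score without a header. Trim Galore, Bowtie2, Picard and MACS2, and the builds GRCh38 and hg38, are named in the submitters' processing notes; control and threshold are not given in the sources used here. The deposited score has no stated definition; its values are whole numbers from 50 upward, and they served only for ranking or filtering inside 1 list. There is 1 list per sample.

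Positions are on hg38, counted from 1, with GENCODE release 44. Base pairs under peaks were summed per list within 10 kb of the canonical TSS and over the gene body of 20007 protein-coding genes. Genes with a mean of at least 200 bp were compared between treatments with limma 3.58.1 (R 4.3.3, trended and robust variance, Benjamini-Hochberg, threshold 0.05), 1 fit per mark; the step was tested on simulated data. A single-gene exact permutation test of 2 against 2 cannot give p under 0.333. For each mark, peaks of the 4 lists that overlapped were merged into regions, and a list held a region when it overlapped it by at least 1 bp.

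Promoters of KIT, CSF1R and FLT3 came from RefSeq (5 of the 6 genes matched by symbol), less bases in annotated exons, and other sequences from hg38. Named genes were the 6 receptors, their neighbours among 5 lists, the 3 most alike by r, and any list gene called by the separate fits. There were 0 such called genes, so the 5 other list genes named were picked after their values were seen. Regions named were those gained, at a TSS or widest. Members, lists and tests were chosen with earlier results of these data known. Alternatives covered peak number, score, window, TSS, scale, filter, replicate block, a joint fit and each list left out.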

Additional observations from a re-analysis of the deposited data

How the results depend on the processing

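Alternatives to the fit were run on the counts of genes called and on the receptors that had enough coverage under them, and alternatives to the peaks or lists used also on the regions. CSF2RB H3K4me3 had too little at scores of at least 100 and without DMSO replicate 1. Within 10 kb of the TSS limma called 0 genes for H3K27ac, but 1996 in 1 fit over all 12 lists and 1608 with the replicate block. For H3K4me2 it called 20, but 1449 in the 12-list fit, 630 with the replicate block, 22 from the 5′ end of the gene and 0 with all covered genes, on log2(bp + 200), with matched peak numbers, at scores of at least 100, within 5 kb and over the gene body; without each list in turn it called 0 to 0. For H3K4me3 it called 0, and 1 in the 12-list fit. Over the gene body the 12-list fit called 2310 genes for H3K27ac and 1722 for H3K4me2, and the replicate block called 1750 for H3K27ac, where the separate fits called 0. The 12-list fit shares 1 estimate of spread between the marks and has more samples to estimate it from; the cause of the calls with the block was not tested.

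The samples share only a number: deviations from the group means of same-numbered Corin and DMSO lists correlated at 0.317 over 9199 genes for H3K27ac, 0.320 over 13752 for H3K4me2 and 0.238 over 10925 for H3K4me3, in 2 pairs each. With the replicate block the adjusted p was 0.00913 for CSF3R H3K27ac and 0.00209 for CSF1R H3K4me2 near the TSS, and 0.000233 for CSF1R H3K27ac over the body (limma). In the 12-list fit, adjusted p for H3K27ac near the TSS was 0.0325 for FLT3, 0.0466 for CSF1R and 0.0259 for CSF3R. Over the body it was 0.00547, 0.000331 and 0.0247, and for CSF1R H3K4me2 it was 9.15e-05 near the TSS and 0.000218 over the body. All of these are higher with Corin. Of the other values of single receptors, 227 kept their direction and side of the threshold.

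Directions turned in 9 cases, each for a difference that did not pass. KIT H3K4me2 near the TSS became -150.5 bp without Corin replicate 1 and -397.5 bp without DMSO replicate 1 (up to 451.5 bp without another list). Over the body it became -375.5 bp with matched peak numbers, -371.5 bp without Corin replicate 1 and -244 bp without DMSO replicate 1 (up to 722.5 bp). CSF2RB H3K4me2 became -39 bp over the gene body. FLT3 H3K4me3 near the TSS became -10.5 bp with matched peak numbers and also -10.5 bp at scores of at least 100, and -21.5 bp without Corin replicate 1 (up to 248.5 bp). Gained H3K27ac regions numbered 10 when a list had to cover 50% of a region (15.1% of all regions) and 2 with matched peak numbers (4.49%). Without each list they numbered 7 to 18 (16.4% to 42.6% of all regions) and lost ones 0 to 3 (0.535% to 3.62%). Gained H3K4me2 regions numbered 4 at 50% (13.7%), 2 with matched peak numbers (3.91%) and 2 to 5 without each list (12.7% to 22.9%). For H3K4me3, gained regions numbered 0 to 1 (2.31% to 5.73%) and lost ones 0 to 1 (1.17% to 2.18%) without each list. Fewer lists make both patterns easier to meet.

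From the 5′ end of the gene, CSF1R had too little coverage to be tested. Read depth is unknown, so a peak missing from a list is no measure of absence.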

Other observations

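Over the gene body, 19 of 25 signal transducers tested had H3K27ac longer in both Corin lists than in both DMSO lists and 0 had it shorter. Of the negative regulators, 10 of 13 were longer and 0 shorter. For H3K4me2 the counts were 19 longer and 4 shorter of 30 transducers, and 13 longer and 0 shorter of 17 negative regulators. Among all genes tested, 60.4% were longer and 1.02% shorter for H3K27ac, and 41% longer and 4.91% shorter for H3K4me2. The separate limma fits of each mark called none of these genes over the body. For H3K27ac, 9 transducers and 6 negative regulators had an unadjusted limma p under 0.05, beside 2321 of all 8961 genes. The counts of longer and shorter genes were not repeated in lists of equal peak number. EPOR, the erythropoietin receptor, had H3K4me3 over 5239 and 4339 bp with Corin and 3500 and 3269 bp with DMSO within 10 kb of its TSS (limma, unadjusted p = 0.00895, adjusted p = 0.566), a gene picked after its values were seen.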
